A study of Homo sapiens with 17 samples.

Results

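The 24-hour and 48-hour vehicle cultures of SF8628 cells were compared, to describe which transcripts differed between the 2 culture times when no drug was present. The members are the 6 libraries labelled DMSO_24h and DMSO_48h, 3 at each time, out of 12 RNA-Seq libraries in the count table and 17 samples in the series. SF8628 is an established line from a pediatric diffuse midline glioma of the pons that carries the histone H3.3 K27M mutation, and it was grown as an adherent monolayer in medium with serum. Both groups received the vehicle DMSO, and they differ in the label only by 24 or 48 hours of exposure. The labels give no batch, so time cannot be told apart from any difference in handling between the 2 groups. The other 6 RNA-Seq libraries received 1 μM AZD5153, a BET bromodomain inhibitor, for the same times, and they are used below to ask where the change in DMSO differed. They also enter the filter on mean counts, the choice of abundant genes to name and the fit behind the p-values. No library from the start of treatment was analysed here, so every value is a difference between the 2 times. The labels do not say whether replicates were separate cultures, so the p-values measure only the spread between these libraries.

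As background, cells that grow attached to a dish go through the division cycle under the drive of growth factors in the medium. Cyclin D with CDK4 or CDK6, and then cyclin E with CDK2, release E2F factors from the RB family, and E2F factors switch on genes of DNA replication. Genes of the later mitotic programme carry CHR and CCAAT elements in their promoters, which bind the DREAM and MuvB complexes and the factor NF-Y. As a culture fills the dish and uses up its medium, growth factor signals, nutrients and cell contacts can all change, so that a vehicle control is not a fixed reference.

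Of 60664 genes in the table, 15599 had a mean of at least 10 normalised read counts over the 12 libraries and were tested, a count being reads on the gene divided by the library's size factor. Between 17104000 and 27335220 reads fell on genes in the 6 DMSO libraries. Long non-coding RNA genes held 1.05% to 1.07% of them at 24 hours and 1.34% to 1.37% at 48 hours. With limma on log2(count + 1) and a Benjamini-Hochberg adjusted p under 0.05, 2551 genes (16.4%) were called higher and 3015 (19.3%) lower at 48 hours. Of these, 485 rose and 95 fell by at least 1 on the log2 scale. That split depends on the setting, with 304 and 212 under quantile normalization and 272 and 44 when 10 was added in place of 1. In 3499 genes (22.4%) every 48-hour library lay above every 24-hour library, and in 3755 (24.1%) every one lay below. Of tested protein-coding genes 16.9% were called higher and 23.0% lower, and of tested long non-coding RNA genes 15.3% and 1.66%. When each library was scaled to the same total instead of by size factors, the split was 3126 higher and 2440 lower, and the median log2 fold change of all tested genes moved from 0.01 to 0.07. Changes below are therefore read against a median near 0, and the counts of every list against 16.4% higher and 19.3% lower. The shares called also differed by level, with tested genes in 5 equal groups by mean count. In the group with the lowest means 8.94% were higher and 1.92% lower (median 0.25). In the group with the highest means 15.3% were higher and 41.6% lower (median -0.11). No list was set against genes of like level, so for lists of abundant genes 19.3% lower is a low reference. For lists of low genes a median near 0 is likewise a low reference.

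DMSO_24h replicate 1 stood apart from its group before any gene was considered. In a principal component analysis of the 6 libraries, the first component, with 53.5% of the variance, placed it at -54.8, the other 24-hour libraries at -17.5 and -15.2, and the 48-hour libraries at 28.5 to 29.6. Its deviation from the group mean followed the GC content of the transcripts across genes, with a Spearman correlation of -0.53 over 15577 genes, which share the library and are not independent replicates. The deviations of replicates 2 and 3 gave 0.24 and 0.53, and the 3 deviations of a group sum to 0, so the trend cannot be assigned to 1 library by these values. The log2 fold change itself had a correlation with GC content of 0.31, and of 0.16 without replicate 1. With tested genes in 5 equal groups by GC content, the group with the highest GC content had a median log2 fold change of 0.25 with all libraries and 0.10 without this library, and the group with the lowest had -0.12 and -0.06. Without it, 2451 genes were called higher and 3204 lower, and 4819 of the 5566 calls remained in the same direction. Removing a trend on GC content from each library gave 2897 higher and 3174 lower. The counts of the gene lists below are therefore given also without this library, except for the marker lists and some parts of lists. A lower value in bulk RNA can come from fewer cells with the transcript or from less of it per cell, and these cannot be told apart.

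**Figure D1:**
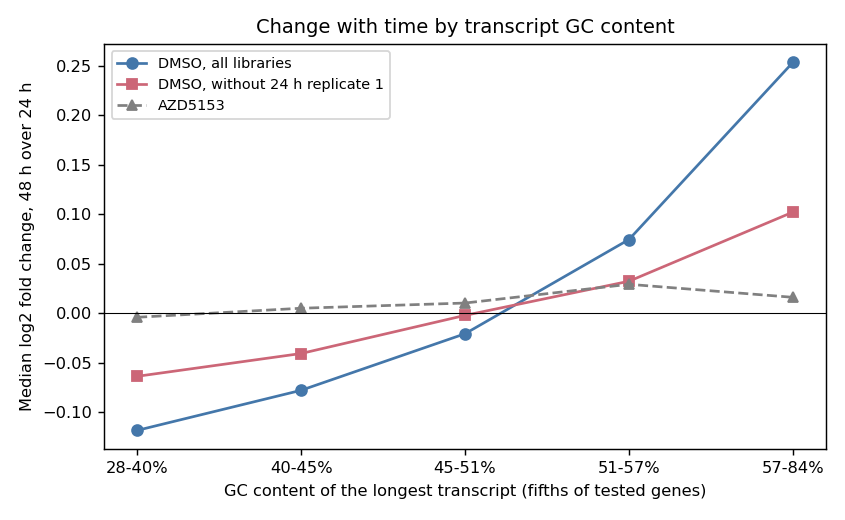
Median log2 fold change (48 h over 24 h, vertical axis) of tested genes in 5 equal groups by GC content of the longest transcript (horizontal axis), in DMSO with all libraries, in DMSO without 24 h replicate 1, and in AZD5153. In DMSO the median climbs from -0.12 to 0.25 across the groups, and from -0.06 to 0.10 without replicate 1, while in AZD5153 it stays near 0, at 0.03 or less.

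The label of the line was checked against markers of glioma and of other cell types. VIM, NES, CD44 and EGFR, which glioma cells carry, were abundant, and SOX2 was between 192 and 252 normalised counts. GFAP and S100B, of the same list, were low, at 22.8 to 57.5 and 35.7 to 100. The oligodendrocyte lineage factors OLIG2 and OLIG1 were at 0 in all 6 libraries, SOX10 reached 6.24 in 1 library only, and PDGFRA was between 0.892 and 5.40, whereas CSPG4, another marker of oligodendrocyte precursors, was between 1749 and 3133. The whole list of 14 glioma and glial markers summed to 39353 to 48761 at 24 hours and 31665 to 32610 at 48 hours, with 5 of 10 tested markers lower and 1 higher. VIM, the intermediate filament and its most abundant member, was at 28352, 20900 and 19355 and then 15310, 15500 and 15170 (-0.56, and -0.39 without DMSO_24h replicate 1). COL1A1, a fibrillar collagen of mesenchymal cells, was between 42070 and 59769. The myeloid list was at 205 to 252 summed counts at 24 hours and 210 to 253 at 48 hours, with C1QA, C1QB, TYROBP and AIF1 at 0, and 0 of its 3 tested markers were called. CSF1R, of that list, was between 176 and 211. The fibroblast and mesenchymal list summed to 68425 to 83271 at 24 hours and 88004 to 94487 at 48 hours. Of the 9 tested members of that list, 4 were higher (COL1A2, PDGFRB, FAP and COL1A1) and 2 lower (PRRX1 and LUM). The endothelial list summed to 593 to 683 at 24 hours and 877 to 919 at 48 hours, with the adhesion molecule PECAM1 the 1 of its 4 tested markers called (0.87, higher) and CDH5 at 0 throughout. ERG, also of that list, was between 256 and 326. The epithelial list summed to 1249 to 1460 and then 1732 to 1905, with 2 of 4 tested markers called higher (KRT8 at 0.91, which overlaps KRT18, and CLDN4 at 0.92) and CDH1, KRT5 and ESRP1 at 0 throughout. The neuron list summed to 892 to 1089 at 24 hours and 1029 to 1151 at 48 hours, with MAP2 the 1 of 4 tested markers called (0.51, higher), SYT1 between 634 and 816 and STMN2 at 0 throughout. Whether these lists have a part in any result below was not tested.

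**Figure D2:**
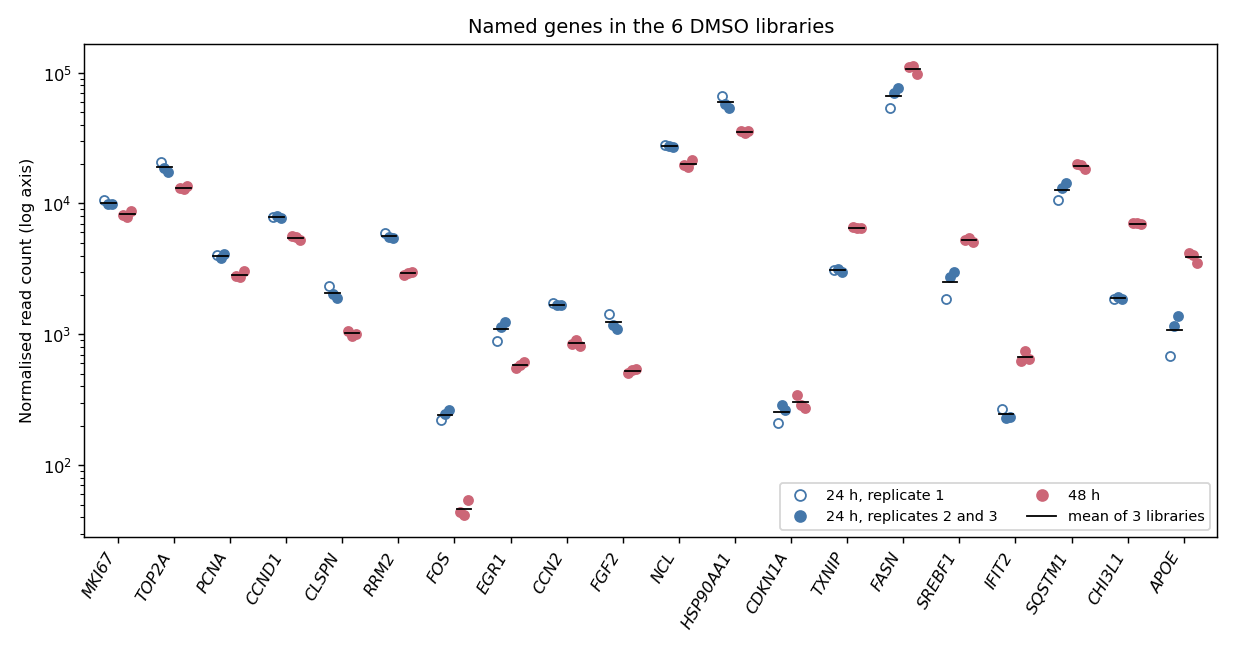
Normalised read counts on a log axis for 20 named genes in the 6 DMSO libraries (points; open circles mark 24 h replicate 1; bars are means of 3 libraries). FOS drops from above 220 to 54 or less, TXNIP and CHI3L1 sit far above their 24 h values at 48 h, and CDKN1A overlaps between the times.

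Genes of DNA replication fell together. Of 46 tested replication genes, 37 were called lower and 0 higher, with a median log2 fold change of -0.47 beside 0.01 for all tested genes, and 38 were lower without DMSO_24h replicate 1 (median -0.42). Among the helicase and licensing genes 15 of 17 were lower, among polymerases, clamp and fork proteins 17 of 23, and among genes of nucleotide supply 5 of 6. MCM2, a subunit of the replicative helicase, had 3522, 3961 and 4345 normalised counts in the 24-hour libraries and 3224, 3214 and 3026 in those of 48 hours. All 3 libraries at 48 hours lay below all 3 at 24 hours, with a log2 fold change of -0.32 ± 0.070 (SE; limma adjusted p = 0.0022). PCNA, the sliding clamp, had 4013, 3832 and 4115 counts at 24 hours against 2772, 2746 and 3021 at 48 hours, again without overlap (-0.49 ± 0.060, limma adjusted p = 1.9e-05). The largest fall of the list was in CLSPN, the claspin adaptor that carries the replication checkpoint signal, from 2335, 2024 and 1889 to 1062, 973 and 1010 (-1.03 ± 0.073, limma adjusted p = 1.2e-07). RRM2, the regulated subunit of ribonucleotide reductase, fell from a mean of 5636 ± 261 (SD, n = 3) to 2921 ± 74.9 (limma adjusted p = 6.1e-09). MCM10 and CDC6, which act in the loading and firing of origins, each fell by 0.82 on the log2 scale. CDT1 (-0.11), POLD1 (-0.11), LIG1 (-0.13) and DUT (-0.11) were among the 9 that were not called. TYMS, thymidylate synthase, was at 397, 214 and 157 at 24 hours against 136, 129 and 135, and its call (-0.82) was lost without DMSO_24h replicate 1, at -0.45. TYMS also overlaps the more abundant ENOSF1 on the other strand.

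Mitotic genes fell by a like amount. Of 44 tested, 39 were lower and 0 higher (median -0.45, and -0.44 with 39 lower without DMSO_24h replicate 1), including 12 of 12 genes of chromosome structure and mitotic exit. TOP2A, topoisomerase II of dividing cells, had 20881, 18823 and 17259 counts in the 24-hour libraries and 13106, 13007 and 13538 in those of 48 hours. The highest value was in replicate 1, and the groups did not overlap (-0.52 ± 0.064, limma adjusted p = 2.1e-05). CCNB1, the cyclin that drives entry into mitosis, went from 4440, 4408 and 4078 to 3143, 3014 and 3012 (-0.49 ± 0.064). MKI67, the proliferation antigen, changed less, from 10614, 9947 and 9875 to 8231, 7886 and 8812, so that its lowest 24-hour value still exceeded its highest 48-hour value (-0.29 ± 0.058, limma adjusted p = 0.0012). ANLN, an actin-binding protein of the cleavage furrow, fell to 0.639 times its 24-hour mean, CCNA2, cyclin A2, by 0.62 on the log2 scale, and BUB1, a spindle checkpoint kinase, also by 0.62. CDC25B (0.02), CDC25C (-0.19), AURKB (-0.17), KIF2C (-0.10) and CENPA (-0.14) were not called.

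Because replication and mitotic genes moved together, their promoter letters were read from RefSeq (GRCh38.p14), in windows of 300 bases from 250 before to 50 after the first listed start site; 11179 of the tested genes matched. The E2F site, searched on both strands as TTTCCCGC, TTTGGCGC, TTTCGCGC or TTTGCCGC, stood in 18 of 39 matched replication promoters (46.2%) beside 5.24% of all tested genes and 3.33% of all 27305 promoters. The CHR, searched as TTTGAA or TTTAAA, stood in 31 of 38 mitotic promoters (81.6%) beside 15.7% of tested genes and 24.3% of all promoters. The CCAAT box was in 27 of 38 mitotic promoters (71.1%) and in 22 of 39 replication promoters (56.4%), beside 36.6% of tested genes and 35.7% of all promoters. These lists hold genes long known for such elements, so the shares describe the lists and are no evidence on a factor. The 250 bases before the start are shown for the clamp gene and 3 mitotic genes described above, 5′ to 3′ on the gene's strand, with the E2F site and CCAAT boxes (PCNA) or the CHR and CCAAT boxes (CCNB1, MKI67 and TOP2A) in capitals; the windows are chr20:5126623-5126872, minus strand (PCNA), chr5:69166900-69167149, plus strand (CCNB1), chr10:128126424-128126673, minus strand (MKI67) and chr17:40417897-40418146, minus strand (TOP2A).
PCNA: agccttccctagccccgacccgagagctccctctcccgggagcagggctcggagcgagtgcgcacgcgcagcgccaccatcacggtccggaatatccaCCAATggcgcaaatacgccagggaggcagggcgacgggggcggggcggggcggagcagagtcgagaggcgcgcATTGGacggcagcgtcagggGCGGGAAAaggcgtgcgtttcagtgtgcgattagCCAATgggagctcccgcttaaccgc
CCNB1: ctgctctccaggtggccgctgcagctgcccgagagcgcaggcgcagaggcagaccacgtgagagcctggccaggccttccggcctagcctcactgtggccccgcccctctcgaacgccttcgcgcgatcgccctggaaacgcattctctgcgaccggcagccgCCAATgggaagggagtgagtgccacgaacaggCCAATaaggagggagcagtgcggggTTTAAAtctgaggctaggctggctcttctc
MKI67: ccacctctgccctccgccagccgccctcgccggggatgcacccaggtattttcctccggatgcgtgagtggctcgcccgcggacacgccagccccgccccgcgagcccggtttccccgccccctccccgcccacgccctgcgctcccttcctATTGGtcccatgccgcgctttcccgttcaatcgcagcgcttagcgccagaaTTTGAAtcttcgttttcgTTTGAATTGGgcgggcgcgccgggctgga
TOP2A: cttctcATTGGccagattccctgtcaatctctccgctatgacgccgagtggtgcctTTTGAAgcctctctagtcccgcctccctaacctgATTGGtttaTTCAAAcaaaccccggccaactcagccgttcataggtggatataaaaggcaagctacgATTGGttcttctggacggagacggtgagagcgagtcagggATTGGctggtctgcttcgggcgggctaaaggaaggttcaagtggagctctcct

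PCNA carries its E2F site 59 to 52 bases before the start, with 3 CCAAT boxes in the same window. CCNB1 has a CHR at 30 to 25 bases before the start and 2 CCAAT boxes upstream of it. In MKI67 the CHR nearest the start and a CCAAT box share 1 base, at 24 bases before the start. TOP2A holds 4 CCAAT boxes and 2 CHR matches.

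The regulators of entry into the cycle were split by role. CCND1, cyclin D1, was at 7844, 7951 and 7695 counts in the 24-hour libraries and 5604, 5558 and 5277 in those of 48 hours, a tight fall without overlap (-0.52 ± 0.039, limma adjusted p = 2.2e-07). CCNE1 and CCNE2, the E cyclins, fell by 0.58 and 0.75 on the log2 scale, CDK2 by 0.45 and CDK6 by 0.44, whereas CDK4 (-0.04) was not called. CCNE2 is uncertain, since it overlaps the more abundant INTS8 on the other strand. E2F8, an E2F factor that represses other E2F targets, fell from 478, 462 and 446 to 250, 254 and 276 (-0.83 ± 0.163, limma adjusted p = 0.00097), and E2F1 itself (-0.21) was not called. Of 24 tested members of the RB-E2F list, 10 were lower and 0 higher, and 13 lower and 1 higher without DMSO_24h replicate 1. None of the 6 tested CDK inhibitors was called by limma. CDKN1A, which encodes p21, was at 210, 290 and 266 counts in the 24-hour libraries and 344, 290 and 271 in those of 48 hours. Its groups overlapped, and the difference of 0.25 ± 0.104 (limma adjusted p = 0.075) shrank to 0.11 without DMSO_24h replicate 1. CDKN1B, which encodes p27, was at 1082 ± 51.7 and 993 ± 65.4 (SD, n = 3; limma adjusted p = 0.20).

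DNA repair genes were also lower, with 22 of 31 tested called lower and 0 higher (median -0.35, and -0.30 with 23 lower without DMSO_24h replicate 1). Of 19 genes of homologous recombination and the Fanconi pathway, 15 fell, and of 12 genes of end joining, 7 fell. BRCA1, which acts in homologous recombination, was at 3828, 3356 and 3201 counts in the 24-hour libraries and 2462, 2372 and 2319 in those of 48 hours (-0.53 ± 0.067, limma adjusted p = 2.3e-05). EXO1, a nuclease of end resection, fell from 2106, 1932 and 1986 to 1166, 1160 and 1208 (-0.77 ± 0.078). The end-joining kinase gene PRKDC fell by 0.21 on the log2 scale. XRCC1 (0.11) and XRCC3 (0.21) were not called.

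Replication-dependent histone genes did not follow the other replication genes. Of 62 in the list, 30 passed the filter on low values, and 8 of these were higher and 2 lower (median 0.38), and 10 and 2 without DMSO_24h replicate 1. The 22 alternative settings gave 5 to 10 higher and 0 to 4 lower, with a median from 0.13 to 0.50. The messages of these genes lack a poly(A) tail as a rule, and most of those tested were low. H2BC21, the member with the highest mean over the 12 libraries, was at 214, 207 and 199 counts in the 24-hour libraries and 302, 352 and 382 in those of 48 hours (0.73 ± 0.076, limma adjusted p = 4.2e-06). H1-2 rose from 170, 214 and 199 to 307, 305 and 336. Members of this family are near-identical copies, so their reads may be split among them, and the H3 genes had a median of 0.05 with all libraries and 0.68 without DMSO_24h replicate 1.

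**Figure D3:**
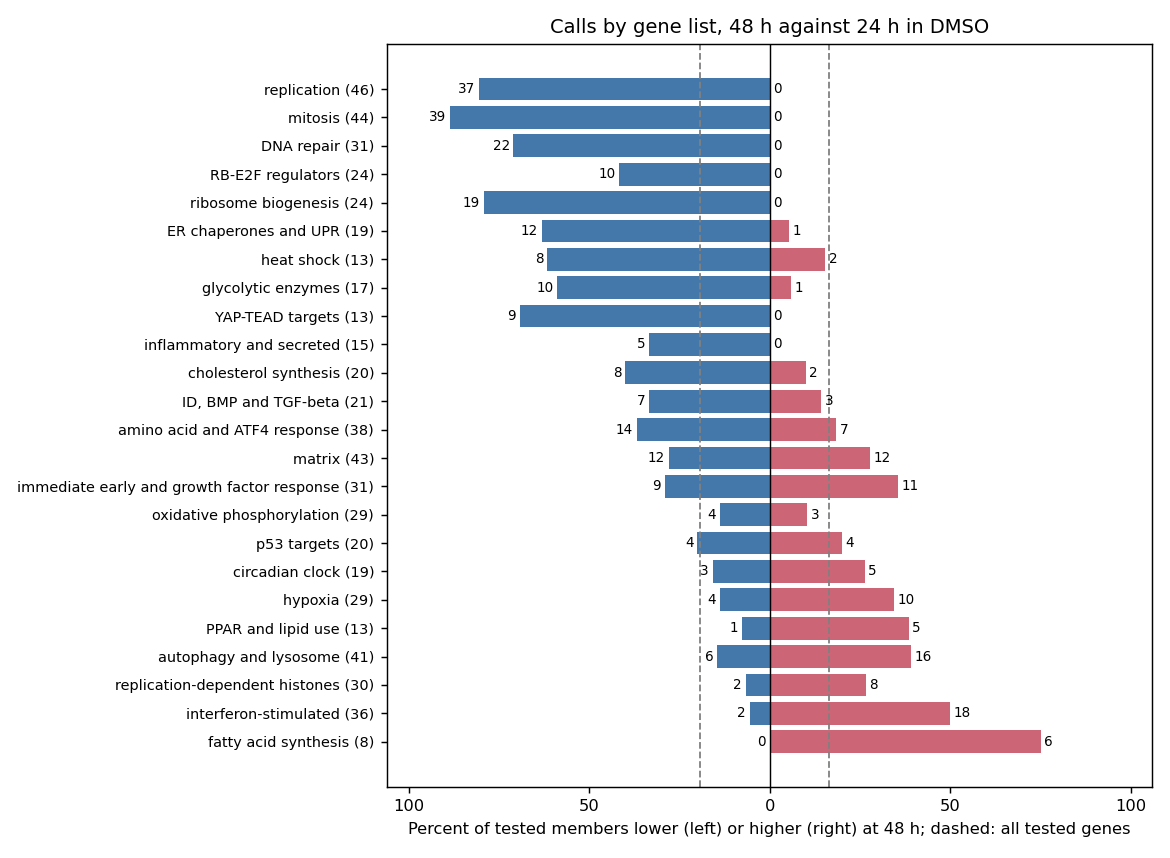
Percent of tested members of each gene list (number tested in parentheses) called lower (left) or higher (right) at 48 h in DMSO by limma, with the number of genes at each bar; dashed lines mark 19.3% lower and 16.4% higher among all tested genes. Replication, mitosis, repair and ribosome biogenesis lie far to the left with no member higher, and fatty acid synthesis and interferon-stimulated genes lie to the right.

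The single largest fall among the genes described was in FOS, the AP-1 subunit that growth factors induce within minutes. It was at 221, 247 and 263 counts in the 24-hour libraries and 44.1, 41.7 and 54.0 in those of 48 hours. The groups were far apart, with a mean 0.191 times that at 24 hours (-2.37 ± 0.133, limma adjusted p = 8.8e-09; -2.44 without DMSO_24h replicate 1). EGR1, another serum-induced factor, fell from 892, 1130 and 1246 to 555, 588 and 618, JUN by 0.82 on the log2 scale, and MYC from 865 ± 39.5 to 659 ± 59.8 (SD, n = 3). Of 8 tested AP-1 genes 4 were higher and 3 lower, and 3 and 3 without DMSO_24h replicate 1. FOSL1, the most abundant member of the list, was at 4681, 7185 and 7574 and then 5168, 4664 and 4924, and its groups overlapped through replicate 1 (-0.37, and -0.59 without that library). JUND was at 1650, 2728 and 2987 counts in the 24-hour libraries and 4256, 4147 and 4090 in those of 48 hours, with replicate 1 the lowest (0.81, with 0.54 without that library and 0.32 after the GC correction). ATF3, a stress-induced member, rose from 29.3, 51.2 and 49.9 to 100.0, 117 and 132 (1.43 ± 0.213). In all, 11 of 31 immediate early and growth factor response genes were higher and 9 lower, with a median of 0.02, and 9 were higher and 10 lower without DMSO_24h replicate 1. Feedback regulators of ERK signalling were divided as well, with DUSP1 (0.55), DUSP5 (0.27) and ETV5 (0.27) higher, SPRY2 (-0.30) and SPRY4 (-0.18) lower, and DUSP6 (0.09) not called.

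Targets of YAP and TEAD, the factors that respond to cell spreading and contact, fell. Of 13 tested targets 9 were lower and 0 higher (median -0.37, and -0.31 with 9 lower without DMSO_24h replicate 1). CCN2, a matricellular growth factor and standard YAP target, was at 1734, 1664 and 1671 counts in the 24-hour libraries and 846, 902 and 816 in those of 48 hours. Its 48-hour mean was 0.506 times the 24-hour mean, with no overlap (-0.98 ± 0.050, limma adjusted p = 5.5e-09). CCN1, its close relative, went from 2821, 2964 and 3403 to 1628, 1584 and 1575, and AXL, a receptor tyrosine kinase, from 6248, 7397 and 7443 to 3921, 3990 and 3963. AMOTL1 (0.03) and LATS2 (0.03), also targets, were not called. Among growth factor genes chosen by the size of their fall, FGF2, basic fibroblast growth factor, was at 1428, 1170 and 1106 counts in the 24-hour libraries and 504, 535 and 540 in those of 48 hours (-1.22 ± 0.104). NRG1, which encodes neuregulin ligands of ERBB receptors, went from 329, 285 and 243 to 73.0, 102 and 111 (-1.59 ± 0.208).

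Genes that make ribosomes and fold proteins were lower at 48 hours. Of 24 genes of ribosome biogenesis 19 were lower and 0 higher (median -0.41; 21 lower without DMSO_24h replicate 1). NCL, nucleolin, had 27991, 27631 and 27203 counts in the 24-hour libraries and 19746, 19054 and 21504 in those of 48 hours (-0.46 ± 0.044, limma adjusted p = 2.0e-06). NOP56, a core protein of box C/D particles that guide rRNA methylation, fell from 3792, 3804 and 3835 to 2602, 2356 and 2648, and DKC1, the pseudouridine synthase dyskerin, from 3412, 3267 and 3400 to 2203, 2210 and 2460. FBL (-0.14) and NOP2 (0.22) were not called. Of 13 heat shock genes 8 were lower and 2 higher, and 10 and 2 without DMSO_24h replicate 1. HSP90AA1, the inducible cytosolic HSP90, was at 66263, 57400 and 53985 counts and then 35607, 34701 and 35783 (-0.74 ± 0.059), and HSPH1, an HSP110 chaperone, at 6543 ± 330 and 3965 ± 146 (SD, n = 3). The small heat shock genes CRYAB (0.85) and HSPB1 (0.44) rose, the latter by 0.22 without DMSO_24h replicate 1 and by 0.13 after the GC correction. Of 19 genes of endoplasmic reticulum folding 12 were lower and 1 higher, and 14 and 1 without that library. HSPA5, the chaperone BiP, went from 17256, 17368 and 17160 to 14218, 13819 and 14432 (-0.29 ± 0.037), and HERPUD1, a membrane protein of ER-associated degradation, rose from 401, 426 and 423 to 628, 539 and 530 (0.44 ± 0.082).

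Of 17 glycolytic enzymes 10 were lower and 1 higher (median -0.17), with the same counts without DMSO_24h replicate 1 and 5 to 10 lower over 22 alternative settings. Of 4 glucose-sensing genes 3 were higher, and 2 without that library. LDHA, lactate dehydrogenase A, was at 27945, 28066 and 26832 counts in the 24-hour libraries and 19815, 19467 and 20374 in those of 48 hours (-0.47 ± 0.038, limma adjusted p = 3.2e-07), and HK2, hexokinase 2, fell from 2561, 2599 and 2459 to 1603, 1761 and 1728. ENO2, the neuronal enolase, was the 1 enzyme that rose, by 0.44. TXNIP, an arrestin that limits glucose uptake and is induced by glucose through MondoA, was at 3097, 3133 and 3019 counts in the 24-hour libraries and 6565, 6442 and 6523 in those of 48 hours. The SD within a group was 58.3 and 62.1 counts, and the ratio of the means was 2.11 (1.08 ± 0.040, limma adjusted p = 1.4e-10). Its relative ARRDC4 (-0.02) was not called. MLXIPL, which encodes the factor ChREBP, rested on 3.38 counts in DMSO_24h replicate 1 and lost its call without it (0.86 against 1.55).

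Lipid genes did not all move together. Of 8 genes of fatty acid synthesis 6 were higher and 0 lower (median 0.47, and 0.40 with 6 higher without DMSO_24h replicate 1). SCD, the stearoyl-CoA desaturase, was at 29759, 30696 and 29975 counts in the 24-hour libraries and 53807, 53666 and 53806 in those of 48 hours, with no overlap (0.83 ± 0.036, limma adjusted p = 7.2e-10). FASN, fatty acid synthase, was at 53762, 70374 and 75688 and then 109990, 111490 and 97970, with replicate 1 the lowest. Its log2 fold change of 0.69 became 0.54 without that library and 0.35 after the GC correction. SREBF1, the master factor of fatty acid synthesis, rose from 1865, 2721 and 3003 to 5287, 5423 and 5108 (1.09 ± 0.124; 0.88 without replicate 1). Of 20 genes of cholesterol synthesis 8 were lower and 2 higher (median -0.14), with the same counts without DMSO_24h replicate 1. Over 22 alternative settings 5 to 10 were lower. Among all tested genes 19.3% were lower, and in the group with the highest means 41.6% (median -0.11). The list was not set against genes of like level, so its count is not read as a fall of the pathway. HMGCS1, the synthase at the head of the pathway, was at 3066, 2738 and 2657 and then 2520, 2505 and 2545 (-0.16, limma adjusted p = 0.095). TM7SF2, a sterol reductase, was higher by 1.32, and its annotation shares bases with VPS51 on the same strand, so its reads are uncertain. ABCA1, the exporter of cholesterol and a target of liver X receptors, rose from 812, 726 and 679 to 1649, 1660 and 1489 (1.11 ± 0.090). APOE, the apolipoprotein that takes up exported lipid, rose from 680, 1152 and 1378 to 4152, 4052 and 3491 (1.92 ± 0.182; 1.62 without replicate 1). FABP3, a fatty acid binding protein, went from 663, 501 and 473 to 1826, 1767 and 1810, whereas FABP5, another, fell from 684, 436 and 396 to 242, 259 and 287. Of 13 tested genes of PPAR signalling and lipid use 5 were higher and 1 lower (median 0.29), the same counts without DMSO_24h replicate 1. ANGPTL4, a PPAR target that inhibits lipoprotein lipase, was near the floor in every DMSO library, between 0.712 and 7.98 counts, and was not called (1.28 ± 0.528, limma adjusted p = 0.071).

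Autophagy and lysosome genes were more often higher than lower, 16 against 6 of 41 tested (median 0.15) beside 16.4% higher and 19.3% lower among all tested genes, and 17 against 6 without DMSO_24h replicate 1. SQSTM1, the autophagy receptor p62, was at 10578, 13187 and 14242 counts in the 24-hour libraries and 19887, 19614 and 18199 in those of 48 hours (0.61 ± 0.081, and 0.49 without replicate 1). GABARAPL1, an ATG8 protein of the autophagosome membrane, went from 410, 416 and 446 to 838, 776 and 852 (0.95 ± 0.066, limma adjusted p = 1.0e-07). PSAP, the precursor of saposins that help break down sphingolipids, rose from 14471, 16155 and 16149 to 28943, 28893 and 29800 (0.91 ± 0.044). TFEB, a master factor of lysosome genes, was called higher at 0.97 but lost its call without DMSO_24h replicate 1, at 0.66. An increase was also called for TP53INP2, a nuclear partner of autophagy proteins (1.03), which is uncertain because its annotation overlaps the more abundant NCOA6. CTSL, the protease cathepsin L, fell from 2896, 3022 and 3141 to 1997, 1973 and 1973 (-0.61 ± 0.068). ATG5, ATG7 and ATG16L1, of the conjugation machinery, fell by 0.29, 0.32 and 0.39, and ATG5 lost its call after the GC correction, at -0.13. ATG7 is uncertain, since it overlaps the more abundant VGLL4 on the other strand.

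Of 29 tested members of the hypoxia list 10 were higher and 4 lower (median 0.11) beside 16.4% and 19.3% of all tested genes, and 11 and 6 without DMSO_24h replicate 1. DDIT4, an inhibitor of mTORC1 that also responds to other stresses, was at 1390, 1867 and 2213 counts in the 24-hour libraries and 4484, 4639 and 4617 in those of 48 hours (1.35 ± 0.114), and NDRG1, a stress-induced growth regulator, at 1207, 1240 and 1268 and then 2375, 2280 and 2449 (0.93 ± 0.049). STC1, a secreted glycoprotein, went down from 2434, 2188 and 2122 to 1168, 1136 and 1083. VEGFA, the vascular growth factor, was at 413, 504 and 636 and then 724, 770 and 729, and while its groups did not overlap the test was missed (0.54 ± 0.207, limma adjusted p = 0.055). SLC2A1 (-0.07), PDK1 (-0.17), BNIP3 (-0.14) and EGLN3 (0.07), which low oxygen is known to induce, were not called. EPAS1, which encodes HIF-2α, rose from 4550, 4555 and 4691 to 7249, 7181 and 6772 (0.62 ± 0.041), and HIF1A was called lower at -0.23 and at -0.10 was not without DMSO_24h replicate 1.

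The amino acid response was divided. Of 38 tested genes 7 were higher and 14 lower (median -0.09), and 6 and 16 without DMSO_24h replicate 1. PSAT1, of serine synthesis, fell from 1877, 1622 and 1628 to 1058, 1033 and 1036 (-0.71 ± 0.063), and SLC7A5, the large neutral amino acid transporter, from 2459, 2944 and 3183 to 1909, 1891 and 1814. ASNS, asparagine synthetase, was low, with 14.7, 22.1 and 13.4 counts against 22.5, 32.8 and 22.7 (limma adjusted p = 0.11). The factors CEBPB (0.76, with 0.48 without DMSO_24h replicate 1 and 0.40 after the GC correction), DDIT3 (0.44) and ATF4 (0.19) were higher, of which DDIT3 shares bases with the more abundant MARS1 on the other strand and is uncertain. ATF4 lost its call after the GC correction, at 0.07. Of 20 p53 targets 4 were higher and 4 lower, shares near those of all tested genes (16.4% and 19.3%), and 5 and 6 without replicate 1. GDF15, a stress-induced cytokine, rose from 13.5, 42.0 and 49.0 to 211, 181 and 192 (2.63, and 2.07 without replicate 1) and BBC3, the pro-apoptotic PUMA, from 65.4, 164 and 149 to 322, 359 and 320, while MDM2, the ligase that degrades p53, fell by 0.49 and AEN, a nuclease, by 0.86.

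Interferon-stimulated genes were more often higher than lower. Of 36 tested, 18 were higher and 2 lower (median 0.42), and 16 and 2 without DMSO_24h replicate 1 (median 0.31). IFIT2, an RNA-binding antiviral protein, was at 271, 230 and 234 counts in the 24-hour libraries and 627, 746 and 644 in those of 48 hours (1.45 ± 0.240, limma adjusted p = 0.00024). IFIT1 went from 436, 492 and 458 to 785, 672 and 782 (0.69 ± 0.131) and IFIT3 from 561, 547 and 455 to 981, 917 and 1170 (0.97 ± 0.140). OASL, of the oligoadenylate synthetase family, rose from 361, 367 and 423 to 895, 1026 and 850, and RSAD2, viperin, from 134, 118 and 111 to 431, 387 and 443 (1.79 ± 0.516, limma adjusted p = 0.013). B2M, the light chain of MHC class I, rose by 0.28 and HLA-E by 0.47. OAS3, another synthetase of that family, was called lower, at -0.17. MX2 (0.89), OAS1 (0.24) and IFI44 (-0.11) were not called. The annotation of LIPA overlaps IFIT1 and IFIT2 on the other strand and spans the start of IFIT3, which lies between them. LIPA had a mean of 1439 over the 12 libraries, against 365 for IFIT1 and 246 for IFIT2, so all 3 IFIT genes are uncertain. CMPK2 overlaps RSAD2, and the strand setting of the counting was not given in the sources used here.

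The ISRE, the element bound by interferon-activated complexes and searched on both strands as a pair of GAAA blocks with any 2 bases between them, stood in 15 of 27 matched promoters of this list (55.6%) beside 2.87% of tested genes and 3.65% of all promoters. This list too holds genes known for the element, so the share describes the list and is no evidence on a factor. The ISRE is shown in capitals for both IFIT genes with 2 matches, in the 250 bases before the start. The windows are chr10:89392373-89392622, plus strand (IFIT1) and chr10:89327747-89327996, plus strand (IFIT3).
IFIT1: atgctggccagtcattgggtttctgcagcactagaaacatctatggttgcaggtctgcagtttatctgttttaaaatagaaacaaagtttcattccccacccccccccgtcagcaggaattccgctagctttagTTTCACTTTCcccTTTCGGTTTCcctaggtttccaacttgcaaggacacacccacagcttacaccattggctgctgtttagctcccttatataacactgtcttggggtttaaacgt
IFIT3: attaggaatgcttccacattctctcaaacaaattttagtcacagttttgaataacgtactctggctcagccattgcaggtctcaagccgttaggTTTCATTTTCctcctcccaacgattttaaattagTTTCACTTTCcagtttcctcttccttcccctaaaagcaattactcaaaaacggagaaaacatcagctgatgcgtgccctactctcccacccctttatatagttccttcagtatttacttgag

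IFIT1 has its matches 116 to 107 and 103 to 94 bases before the start, and IFIT3 has them 156 to 147 and 122 to 113 bases before it. Inflammatory genes did not rise with the interferon list. Of 15 tested 5 were lower and 0 higher (median -0.52), with the same counts without DMSO_24h replicate 1. Over 22 alternative settings 2 to 8 were lower and the median ran from -0.54 to 0.02, so both size and sign of the median depend on the setting. The 5 others, IL6 among them, were under the filter. BIRC3, an inhibitor of apoptosis induced by NF-κB, fell from 725, 742 and 590 to 312, 297 and 314 (-1.15 ± 0.143), and NFKB1, a subunit of that factor, by 0.52. CXCL8, a chemokine, was at 42.8, 39.1 and 38.3 and then 19.8, 9.75 and 11.9, but with a limma adjusted p of 0.10 it was not called.

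Of 43 tested matrix genes 12 were higher and 12 lower, with 12 and 14 without DMSO_24h replicate 1 and 10 and 16 after the GC correction. FN1, fibronectin, took the most reads of any gene, from 2.60% to 2.93% of a library at 24 hours and from 3.57% to 3.79% at 48 hours (0.38 ± 0.045, limma adjusted p = 1.4e-05). MMP2, a gelatinase, was at 16363, 15691 and 16375 counts in the 24-hour libraries and 26417, 26250 and 25809 in those of 48 hours (0.70 ± 0.037). THBS1, thrombospondin 1, moved the other way and fell by 0.75. COL1A1 was at 42070, 52484 and 54745 and then 59769, 58743 and 54917. Its call (0.22) was lost after the GC correction, at -0.0043, so its direction is not settled here.

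The ID genes, targets of BMP signalling that block bHLH factors, were not uniform. ID1 was at 720, 971 and 1070 counts in the 24-hour libraries and 529, 500 and 439 in those of 48 hours (-0.89 ± 0.111), ID2 at 477, 386 and 427 and then 215, 246 and 180 (-1.01 ± 0.097), and ID4 at 68.8, 61.2 and 71.3 and then 36.9, 11.5 and 25.9. ID3 was the only member of the 4 that rose, from 320, 455 and 448 to 540, 583 and 556 (0.47 ± 0.110; 0.31 without DMSO_24h replicate 1). FST, the activin antagonist follistatin, fell by 1.21 and SKIL, a repressor of SMADs, rose by 0.45. Of 21 tested genes of the ID, BMP and TGF-beta list 3 were higher and 7 lower, with or without that library.

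Of 18 tested glial identity genes 3 were higher and 4 lower (median 0.03), and 5 and 4 without DMSO_24h replicate 1. This list, the clock list and the respiration list that follow are to be read against 16.4% higher and 19.3% lower among all tested genes. SOX9 (-0.41), CD44 (-0.53) and EGFR (-0.40) fell, and CSPG4, the proteoglycan NG2, rose by 0.50, by 0.38 without DMSO_24h replicate 1 and by 0.22 after the GC correction. SOX4 (0.57) and MBP (0.66) also rose, and both stayed called after the GC correction and without DMSO_24h replicate 1. Of 19 clock genes 5 were higher and 3 lower, and 5 and 2 without that library. BMAL1, the positive factor of the clock, rose from 143, 137 and 121 to 204, 228 and 182 (0.61 ± 0.112) and NR1D2, of its repressor family, fell from 4236, 3962 and 3406 to 2787, 2816 and 2787, while PER2 was at 154 ± 17.5 and 128 ± 8.06 (SD, n = 3; limma adjusted p = 0.36). With 2 times, a rhythm cannot be read. Of 29 nuclear genes of oxidative phosphorylation 3 were higher and 4 lower (median -0.01), with the same counts without that library but 8 and 2 after the GC correction, so the balance of this list depends on the setting. The 13 genes encoded by the mitochondrial genome were listed at 0 in every library and were not analysed.

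Outside the lists, the largest changes at mean levels of 100 counts or more were in genes of varied function. CHI3L1, a secreted glycoprotein known as YKL-40, was at 1865, 1942 and 1870 counts in the 24-hour libraries and 7037, 7063 and 6950 in those of 48 hours, with little spread in either group (1.89 ± 0.056, limma adjusted p = 1.5e-11). Its neighbour on chromosome 1, MYBPH, rose from 138, 147 and 191 to 775, 703 and 712 (2.21 ± 0.276). LCNL1, a lipocalin-like gene, rose from 42.8, 64.1 and 39.2 to 301, 348 and 310 (2.72 ± 0.252), and YPEL3, a small nuclear protein, from 148, 117 and 149 to 514, 503 and 437. SYT12, NANOS1 and SLC34A3 rose by 1.99, 1.97 and 1.85. IZUMO4 was low in DMSO, at 9.02, 8.54 and 13.4 and then 57.6, 37.2 and 46.4 (2.09). SLC34A3 rested in part on DMSO_24h replicate 1, with 1.14 without it, and NANOS1 and IZUMO4 lie on bases shared with the more abundant genes EIF3A and MOB3A. FER1L4, a transcribed pseudogene, rose from 24.8, 17.1 and 24.1 to 99.1, 91.3 and 90.7. FCGR1A was at 2.25, 1.42 and 1.78 and then 17.1, 7.98 and 19.4, levels at which few reads decide, and it has near-identical copies. Its annotation also overlaps H2BC18, more abundant over the 12 libraries, on the other strand. FCGR1A, IZUMO4, GALNT9, FER1L4 and ID4 reach a mean of 100 only with the AZD5153 libraries. Of the falls, MARCHF4, a membrane ubiquitin ligase, was at 354, 416 and 413 and then 84.7, 96.6 and 89.6 (-2.11 ± 0.163), and PTX3, a secreted pentraxin, at 561, 646 and 633 and then 207, 237 and 189 (-1.54 ± 0.091). NCEH1, a cholesteryl ester hydrolase, fell from 2224, 2019 and 1821 to 864, 773 and 810, and DNER, a Notch ligand of neurons, from 229, 268 and 291 to 113, 78.9 and 105. KCNK2, a potassium channel, GALNT9, a glycosyltransferase, and FHL2, a LIM-domain cofactor, fell by 1.22, 1.47 and 1.20.

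The change with time was then set beside that in AZD5153, whose libraries are not those of the DMSO comparison but share its fit. In AZD5153, 2472 of all tested genes (15.8%) were called higher and 2155 (13.8%) lower at 48 hours. The test of the difference between both time changes called 3829 genes (24.5%). Of the 3015 genes lower with time in DMSO, 882 were also called lower with time in AZD5153, 390 were higher and 1743 were not called; of the 2551 higher, 852 were also higher and 200 lower. The test of the difference called 1502 and 964 of them, but it uses the same DMSO libraries that chose these genes, so those counts are not read further. The same holds for single genes picked by the size of their change in DMSO, for which both time changes are given below as a description with no test. Mitotic genes had a median log2 fold change of -0.45 in DMSO and 0.49 in AZD5153, where 34 of 44 rose and 1 fell with time beside 15.8% and 13.8% of all tested genes, and the test of the difference called 41 of the 44, 40 of them with the greater value in AZD5153. TOP2A fell by 0.52 in DMSO and rose by 0.91 in AZD5153 (difference 1.43, limma adjusted p = 9.0e-08). These are changes with time and not levels against DMSO. TOP2A had a mean of 10060 over all 12 libraries, below its DMSO means of 18988 at 24 hours and 13217 at 48 hours. Its AZD5153 libraries were therefore lower on average than its DMSO libraries. The same held for BRCA1, with 1884 against 3461.5 and 2384.5. Levels of whole lists in AZD5153 were not compared here. Replication genes had medians of -0.47 and 0.14, and DNA repair genes -0.35 and 0.21. Within the repair list, homologous recombination and Fanconi genes had -0.49 and 0.39, and end-joining genes -0.28 and -0.02. Nucleotide supply genes, within the replication list, had -0.37 and -0.07. Ribosome biogenesis genes fell in both, with medians of -0.41 and -0.29, and YAP and TEAD targets had -0.37 and -0.54. FOS fell by 2.37 in DMSO and fell by 3.12 in AZD5153, and SCD rose by 0.83 under either agent. CHI3L1 rose by 1.89 in DMSO and fell by 0.74 in AZD5153.

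**Figure D4:**
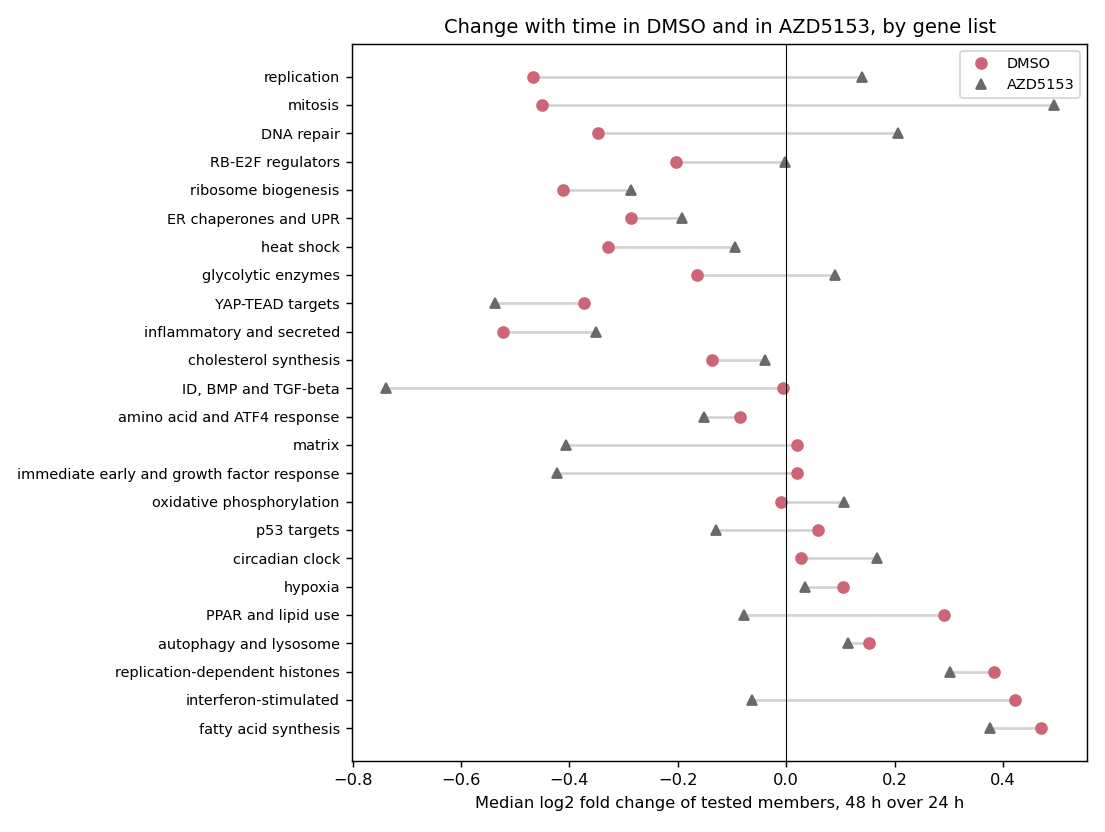
Median log2 fold change (48 h over 24 h) of the tested members of each gene list in DMSO (circles) and in AZD5153 (triangles). Mitotic, replication and repair genes lie left of 0 in DMSO and right of 0 in AZD5153, whereas ribosome biogenesis and YAP-TEAD targets lie left of 0 in both.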

How the data were processed

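Total RNA was extracted with RNeasy, made into libraries with NEBNext Ultra II and sequenced on a NovaSeq as paired-end reads. Per the labels and methods, the authors aligned reads to hg38 with STAR, counted them per gene with HTSeq and normalised them with DESeq2; versions, annotation and strand setting were not given in the sources used here. The deposited values are a signal, gene counts divided by size factors. All values came out as whole reads (tolerance 0.02) when the steps were undone, and edgeR 4.0.16 and DESeq2 1.42.0 were run on these recovered reads as alternatives. Columns with the authors' own fold changes and p-values were not used. The main test was limma 3.58.1 (R 4.3.3, trended eBayes) on log2(count + 1) of 12 libraries with 4 group means, genes with a mean of at least 10, and a Benjamini-Hochberg threshold of 0.05. A fold change on this scale understates the change of low genes. The difference between both time changes was an interaction contrast in the same fit. The scripts were tested on simulated data. Gene positions and GC content were read from GENCODE 44. The members and lists were chosen with earlier results of these data known. Genes were named as the 12 largest called changes in each direction with a mean of at least 100, the largest called members and the most abundant member of each list, and a preset set; other genes named were chosen after their values were seen. Replicate numbers were not treated as pairs. Some genes that this rule names are not reported here.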

Additional observations from a re-analysis of the deposited data

Results flagged for a closer look

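The change with time differed between AZD5153 and DMSO, by the limma test of the difference itself, in 3829 genes. Genes picked by the size of their change in DMSO are tested here with the DMSO libraries that picked them, which favours a difference opposite in sign to that change, so their values are a description. Values below are the log2 change with time in AZD5153 minus that in DMSO. Among genes of the cell cycle and repair, the difference was 1.43 for TOP2A, 0.62 for MKI67, 0.66 for CCNB1, 0.65 for PCNA, 0.46 for MCM2, 1.10 for BRCA1, -0.28 for CCND1, -0.75 for CDKN1A and 0.36 for CDKN1B. Among growth factor response genes and YAP targets it was -0.75 for FOS, -1.28 for EGR1, -0.66 for MYC, -1.06 for CCN2 and 0.90 for FGF2. Among metabolic, lipid and hypoxia genes it was 0.49 for TXNIP, -0.93 for VEGFA, -2.67 for ANGPTL4 and -1.61 for APOE. ANGPTL4 was near the floor in every DMSO library, between 0.712 and 7.98 counts. Among the other genes that were lower in DMSO it was 0.98 for MARCHF4, 1.12 for GALNT9, 1.92 for DNER, 1.04 for NCEH1 and 0.70 for FHL2. Among the other genes that were higher in DMSO it was -4.94 for LCNL1, -1.78 for FCGR1A, -1.41 for MYBPH, -1.03 for IZUMO4, -1.69 for SYT12, -1.23 for NANOS1, -2.63 for CHI3L1, -2.32 for SLC34A3 and -2.30 for RSAD2.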

How the results depend on the processing

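With an absolute log2 fold change of at least 1 required, 485 genes were higher, 95 lower and 754 differed between AZD5153 and DMSO. Under the same requirement quantile normalization gave 304 higher and 212 lower. Adding 10 in place of 1 before the log gave 272 and 44, and a minimum mean of 100 gave 153 and 27. Leaving out 1 DMSO library at a time (no AZD5153 library was left out) gave 1935 to 2831 higher, 2507 to 3204 lower and 3015 to 4588 that differed. The replicate numbers did not pair the libraries (correlations of deviations -0.018 to 0.018), and with the replicate number as a block 2405 were higher, 2854 lower, and the number of genes whose change with time differs between AZD5153 and DMSO was 3438. edgeR called 2820 higher and 2994 lower, and DESeq2 2757 and 3116. A limma fit of the DMSO libraries alone called 2150 higher and 2584 lower. The GC correction and the fits without DMSO_24h replicate 1 that add it or use edgeR were chosen after seeing the data. COL1A1 changed sign under the GC correction (-0.0043, limma adjusted p = 0.935); the cause was not tested. Without DMSO_24h replicate 1, TYMS (-0.45), MLXIPL (0.86), TFEB (0.66), HIF1A (-0.10), NDUFB3 (-0.19) and TEAD1 (-0.10) lost their calls, among the genes named here or by the rule. Other settings cost more calls among the 173 genes named by the rule. The DMSO libraries alone lost 12, as did leaving out DMSO_48h replicate 2 or 3. Leaving out DMSO_24h replicate 2 lost 10, eBayes without trend 10 and quantile normalization 9.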
